A study of Mus musculus with 25 samples.

Results

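Ifi205 belongs to the interferon-inducible p200 family, and its transcript was followed here with those of 7 other interferon-inducible genes, Ifi204, Ifi203, Ifit1, Ifit2, Ifit3, Isg15 and Irf7. Members were the probes whose platform gene symbol is 1 of these 8 names. Of the 8, 6 had a probe of their own, 1 probe each, among the 32996 probes of an array, 14401 of which name a single gene, for 13832 genes in all. Ifit3 was present only on a probe that the platform annotation shares with Ifit3b, and its values are given as Ifit3/Ifit3b. No probe carries the symbol Ifi203, so it has no value.

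The mice of the strain B6.C-D7Mit353 are homozygous congenics that the labels call lean, and the strain name carries the chromosome 7 marker D7Mit353. They are called congenic here and were compared with the background strain C57BL/6J, called B6. Total RNA of gonadal white adipose tissue, gastrocnemius muscle, liver and brain was read on 1-colour Applied Biosystems arrays, with 3 congenic and 3 B6 arrays per tissue, 24 in all. A 25th array, congenic brain replicate 2, lies outside the triplicates named by the design and was used only as an alternative. Its title code differs from that of congenic brain replicate 4 in the last letter alone, and whether both came from 1 animal is not stated. No treatment, age or diet is given in the labels, and the sources used here do not state where the donor segment ends. Of the members, Irf7 lies on chromosome 7, Ifi205, Ifi204 and Ifi203 on chromosome 1, the Ifit genes on chromosome 19 and Isg15 on chromosome 4.

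Interferons are cytokines released after a cell senses viral nucleic acid, and they act through receptors, Janus kinases and STAT and IRF9 factors on a common set of target genes. Isg15 encodes a ubiquitin-like protein that is joined to other proteins, the Ifit genes encode proteins that bind foreign RNA, and Irf7 is a transcription factor that amplifies interferon production. The p200 genes form a cluster on mouse chromosome 1 and encode nuclear proteins that bind DNA and were first described in macrophages and other blood cells. Fat, liver, muscle and brain all hold resident macrophages, which in brain are the microglia.

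Sequences just upstream of the transcription start are shown because interferon target genes share the interferon-stimulated response element, a repeat of GAAA. In the RefSeq windows of build GRCm38.p6, 7 of the 8 members had an entry, with 9 windows of 250 bases. Both strands were searched for GAAA followed, after 1, 2 or 3 bases of any kind (N), by a further GAAA, and 5 of those members had a match. At least 1 of the 3 spacings was found in 7.45% of all 32851 windows, that with 1 N in 2.68%, with 2 N in 2.98% and with 3 N in 2.38%. The 4 windows below run 5′ to 3′ on the gene's strand, with matches in capitals. They lie at chr1:174031756-174032005 (minus strand) for Ifi205, chr19:34640639-34640888 (plus strand) for Ifit1, chr19:34583279-34583528 (plus strand) for Ifit3 and chr4:156200819-156201068 (minus strand) for Isg15.
Ifi205: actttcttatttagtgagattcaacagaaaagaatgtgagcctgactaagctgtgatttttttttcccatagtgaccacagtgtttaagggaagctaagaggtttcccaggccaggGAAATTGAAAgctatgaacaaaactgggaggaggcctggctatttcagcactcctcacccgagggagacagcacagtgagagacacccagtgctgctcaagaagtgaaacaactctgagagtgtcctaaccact
Ifit1: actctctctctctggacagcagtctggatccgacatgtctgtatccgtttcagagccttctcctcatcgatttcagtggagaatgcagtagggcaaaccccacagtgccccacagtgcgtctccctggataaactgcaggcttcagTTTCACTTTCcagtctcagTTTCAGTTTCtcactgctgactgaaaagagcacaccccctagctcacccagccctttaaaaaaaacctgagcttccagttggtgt
Ifit3: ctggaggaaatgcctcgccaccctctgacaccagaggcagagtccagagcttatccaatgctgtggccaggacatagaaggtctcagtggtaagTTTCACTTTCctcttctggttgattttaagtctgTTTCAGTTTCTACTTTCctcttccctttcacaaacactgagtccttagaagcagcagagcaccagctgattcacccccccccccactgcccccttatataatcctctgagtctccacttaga
Isg15: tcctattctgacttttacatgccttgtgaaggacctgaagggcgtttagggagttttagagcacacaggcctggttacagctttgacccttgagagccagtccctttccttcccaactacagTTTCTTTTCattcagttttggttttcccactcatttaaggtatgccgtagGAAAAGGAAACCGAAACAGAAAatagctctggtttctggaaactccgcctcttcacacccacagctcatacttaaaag
Ifi205 held a single match, GAAATTGAAA, 134 to 125 bases upstream of its start. Isg15 held 4, of which the 3 on the printed strand overlap in a chain. The 2 matches of Ifit1 and the 3 of Ifit3 read on the strand opposite to the printed one, and 2 of those of Ifit3 overlap. The second of 2 Ifi203 starts held GAAATCGAAA, 35 to 26 bases upstream. The windows of Ifit2 and Irf7 did not hold these letters. A match is a description of the letters, and no binding was measured.

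A probe is called detected where the authors' signal to noise ratio is at least 3. By that rule 39.7% to 55.3% of probes were detected per array. The labelled tissues carried their own markers. All 4 adipocyte genes with a probe were detected on every gonadal fat array, all 4 skeletal muscle genes on every gastrocnemius array and all 5 hepatocyte genes on every liver array. In brain 3 of 4 neuron genes were, and the Snap25 probe was not. Some arrays stood apart within their group. The 9 testis and epididymis genes had a log2 summed level of 13.85 on gonadal fat congenic replicate 1, against 19.52 to 21.96 on the other 5 fat arrays. In brain, liver and gastrocnemius that sum was 11.10 to 13.81, and the adipocyte sum in fat was 20.17 to 20.82. Most fat arrays thus carried these transcripts at high levels, and leaving out replicate 1 removes the fat array with the least of them. Their part in the fat levels was not tested. The 4 pancreas genes reached 20.99 on liver congenic replicate 2, against 11.33 to 15.90 on the other 5 liver arrays. Tissue differences without both arrays are given below for the members where an array mattered to the call or the value, and strain differences without the array of that tissue are given for each member tested.

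Isg15 was detected on 24 of 24 arrays, Ifi205 and Ifit3/Ifit3b on 21 each, Ifi204 on 18, Ifit2 on 11, Irf7 on 9 and Ifit1 on 3. The 3 arrays without Ifi205 were the 3 congenic brain arrays. Levels below are log2 signals after background correction and quantile normalization of the 24 arrays together, and they compare arrays for 1 probe, not probes with each other. In bulk tissue a lower level cannot be told apart from fewer cells of the type that expresses the gene.

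**Figure D1:**
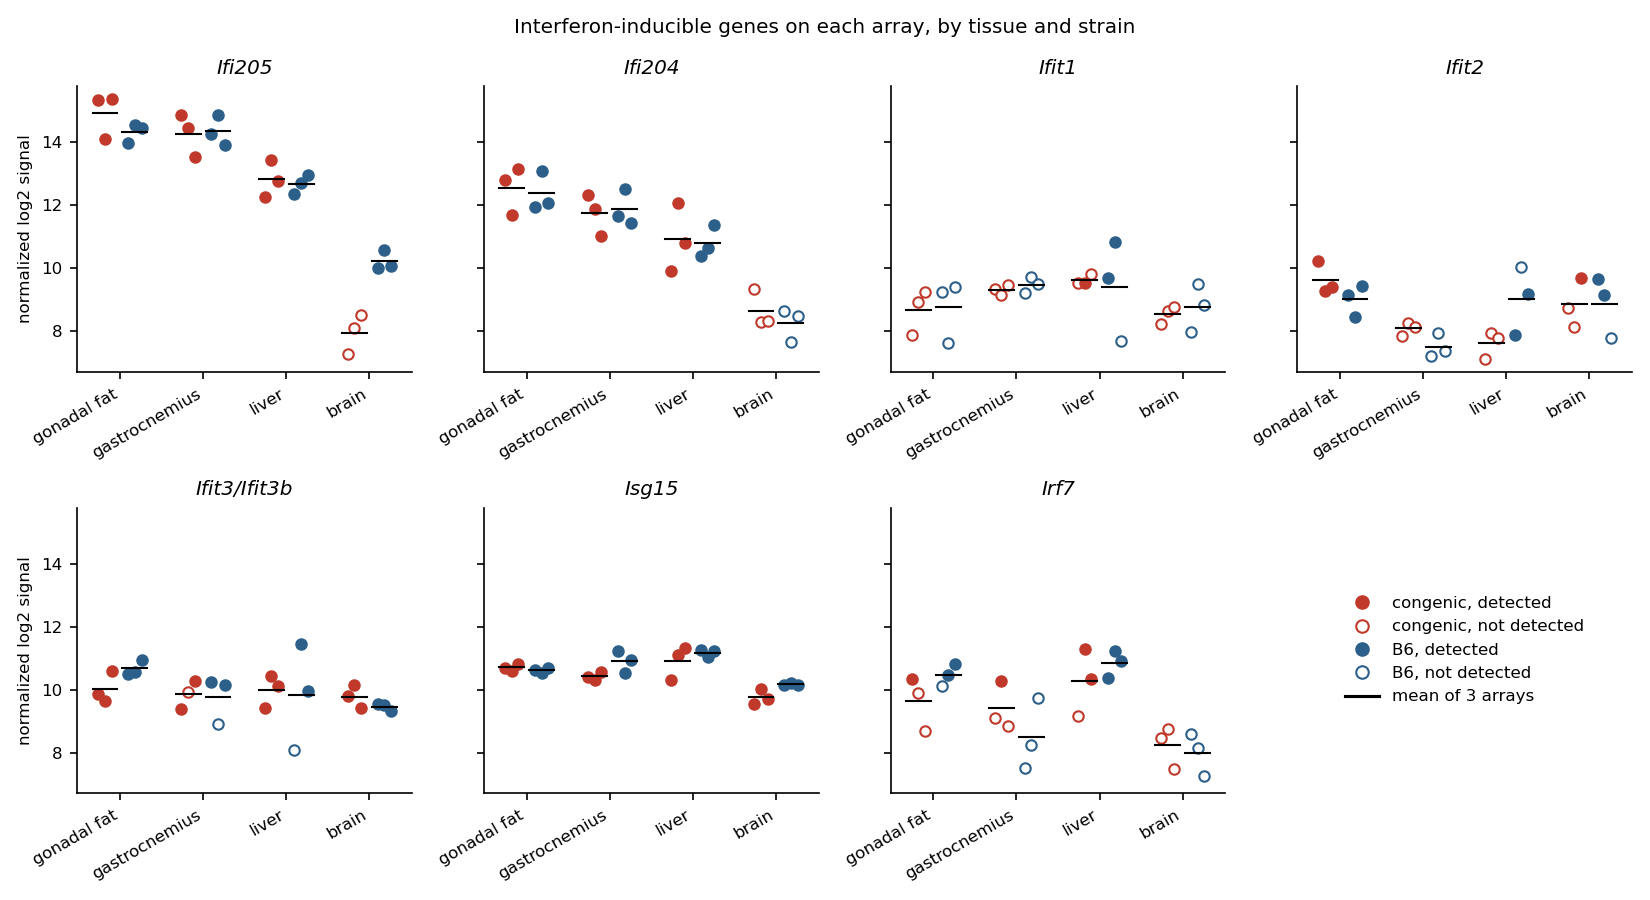
Normalized log2 signal of each member on each of the 24 arrays, by tissue, with congenic arrays to the left of B6 arrays and the mean of 3 arrays as a bar. Filled points are detected and open points are not; the scale is shared, but levels of different probes are not comparable. Ifi205 and Ifi204 run downward through fat, muscle, liver and brain, and the congenic brain arrays are the only ones on which Ifi205 was not detected.

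Ifi205 was highest in gonadal fat and gastrocnemius, intermediate in liver and lowest in brain. On the gonadal fat arrays its level was 15.33, 14.11 and 15.37 in the congenic and 13.99, 14.56 and 14.45 in B6. On the gastrocnemius arrays it was 14.85, 14.45 and 13.53 in the congenic and 14.27, 14.87 and 13.90 in B6. The strains overlapped in both tissues, and so did the tissues. On the liver arrays it was 12.27, 13.44 and 12.77 in the congenic and 12.37, 12.70 and 12.95 in B6. On the brain arrays it was 7.28, 8.10 and 8.50 in the congenic and 10.03, 10.57 and 10.07 in B6. Every liver array lay below every fat and muscle array and above every brain array.

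The fitted difference, taken as the mean over both strains, was 5.56 ± 0.28 log2 units for gonadal fat minus brain (SE, limma adjusted p = 2.95e-14). Gastrocnemius minus brain was 5.22 ± 0.28 (adjusted p = 6.6e-14) and liver minus brain 3.64 ± 0.28 (adjusted p = 3.23e-11). These average over a strain in which Ifi205 was detected in brain on 3 of 3 arrays, B6, and one in which it was detected on 0 of 3, the congenic, so no fold is taken from them. Within B6 the means differed from brain by 4.12, 4.13 and 2.45 log2 units in fat, muscle and liver, or 17.3-fold, 17.5-fold and 5.48-fold. Within the congenic, where Ifi205 was not detected in brain, its folds over brain are bounds. They were 126-fold in fat, 79.3-fold in muscle and 29.0-fold in liver. A bound sets each undetected array at no less than the lowest detected signal of any probe on it. It is an estimate that carries the error of the values, not a minimum. No test was made within a strain. Gonadal fat minus liver was 1.93 ± 0.28 (adjusted p = 3.85e-06), and gastrocnemius minus liver 1.58 ± 0.28 (adjusted p = 3.99e-05). Fat and muscle were not separated, at 0.34 ± 0.28 for gonadal fat minus gastrocnemius (adjusted p = 0.321). Tissues differ in very many transcripts, so these calls are read against all 21516 probes tested. Of those, 30.5% were called higher in gonadal fat than in brain, 28.6% higher in gastrocnemius than in brain and 29.9% higher in liver than in brain. The share called and at least as far above brain as Ifi205 was 0.888% for fat, 1.09% for muscle and 4.76% for liver. Against liver that share was 9.57% for fat and 11.6% for muscle. Without gonadal fat congenic replicate 1 and liver congenic replicate 2, the differences from brain were 5.46, 5.21 and 3.49 for fat, muscle and liver, and those from liver were 1.97 for fat and 1.72 for muscle, and all 5 were called.

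Ifi204, whose protein in mouse is a DNA sensor of the same family, followed a similar order. Its level was 12.80, 11.71 and 13.15 on congenic fat arrays and 11.95, 13.10 and 12.09 on B6 fat arrays. On gastrocnemius arrays it was 12.33, 11.89 and 11.03 in the congenic and 11.66, 12.52 and 11.45 in B6. On liver arrays it was 9.93, 12.08 and 10.82 in the congenic and 10.39, 10.65 and 11.38 in B6. Liver congenic replicate 2, the array with the high pancreas genes, was the highest of the liver arrays for Ifi205 and for Ifi204. In brain Ifi204 was below the detection rule on 6 of 6 arrays, so differences from brain are bounds, and the bound for brain is close to the measured signal there. By the bound Ifi204 was 16.1-fold higher in gonadal fat (limma adjusted p = 1.65e-09), 10.2-fold in gastrocnemius (2.98e-08) and 5.34-fold in liver (4.4e-06) than in brain. These bounds are estimates that carry the error of the fit, and none is a guaranteed minimum.

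Gonadal fat minus liver was 1.63 ± 0.38 for Ifi204 (SE, limma adjusted p = 0.000886) and gastrocnemius minus liver 0.97 ± 0.38 (adjusted p = 0.0356). Gonadal fat minus gastrocnemius was 0.66 ± 0.38 (adjusted p = 0.149). The muscle and liver difference was the least stable of these. It missed the threshold when any of 7 single arrays was left out, with adjusted p from 0.0638 without liver congenic replicate 3 to 0.127 without liver congenic replicate 1. The other 5 were liver B6 replicates 1 and 2, gastrocnemius congenic replicates 1 and 2 and gastrocnemius B6 replicate 2. With the title number as a fixed replicate block, which pairs arrays of liver, fat and muscle, gonadal fat minus liver was 1.39 (adjusted p = 0.062) and gastrocnemius minus liver 0.79 (adjusted p = 0.272). Without the 2 arrays that stood apart these differences were 1.84 (adjusted p = 0.000463) and 1.24 (adjusted p = 0.00746).

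**Figure D2:**
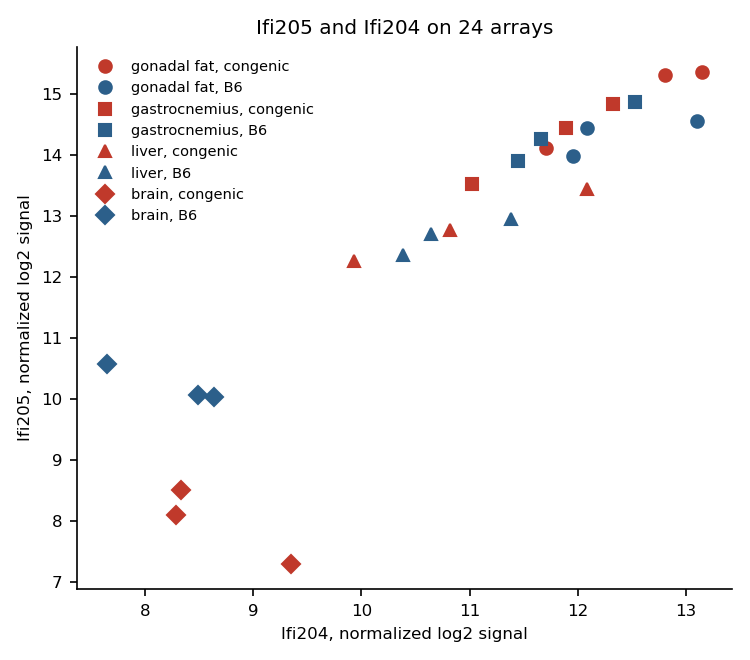
Level of Ifi205 (vertical axis) against level of Ifi204 (horizontal axis), both normalized log2 signal, on the 24 arrays, with tissue by symbol and strain by colour. The 18 fat, muscle and liver arrays lie along a band, and the brain arrays lie apart at the low end of Ifi204, where the congenic arrays sit below the B6 arrays for Ifi205.

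Ifi205 and Ifi204 varied together over arrays. Pearson's r of their levels was 0.908 over 24 arrays, which share the tissue differences, and 0.571 after the mean of each tissue and strain was removed. No other member had r above 0.337 with Ifi205 within groups, and Ifit2 had that value. The within-group deviations were of like size for the pair on several arrays. On gonadal fat congenic replicate 2 they were -0.83 for Ifi205 and -0.85 for Ifi204, and on gastrocnemius congenic replicate 3 they were -0.75 and -0.72. On gastrocnemius congenic replicate 1 they were 0.58 for each, and on gastrocnemius B6 replicate 2 they were 0.52 and 0.65. In brain, where Ifi204 was not detected, the deviations ran in opposite directions on all 6 arrays. For Ifi205, arrays that share a title number deviated in the same direction in some cases and in opposite directions in others. The gastrocnemius and fat arrays of 1 B6 number were at 0.52 and 0.22. The fat, liver and muscle arrays of 1 congenic number were at -0.83, 0.62 and 0.58.

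Markers of macrophages and microglia moved with the pair. Of 14 genes listed, 11 had a probe, and between 7 and 11 were detected on all 3 arrays of a group. Adgre1 and Msr1 were detected on no array of B6 brain or congenic gastrocnemius, Msr1 on none of congenic brain, and Aif1 on none of B6 liver. The log2 summed level was 17.92 to 19.44 in congenic and 18.20 to 18.79 in B6 gonadal fat. It was 16.91 to 17.29 in congenic and 16.46 to 19.01 in B6 gastrocnemius, with replicate 2 the highest. In liver it was 16.24 to 17.39 in the congenic and 16.30 to 16.66 in B6, and in brain 16.21 to 16.59 in the congenic and 16.24 to 16.58 in B6. Within groups, r of the list's mean deviation over 24 arrays was 0.708 with Ifi205 and 0.624 with Ifi204. The ranges of this list overlapped between congenic and B6 brain, where those of Ifi205 did not, and between liver and brain, where those of Ifi205 did not. The 7 endothelial genes had r of 0.417 with Ifi205 and 0.507 with Ifi204, and the 5 plasmacytoid dendritic cell genes 0.523 and 0.338. Of the latter, Siglech and Ccr9 were detected on no liver or B6 gastrocnemius array and Irf8 on no brain array. Another of them, Bst2, is also among the antiviral effectors below. The summed level of that list was highest in brain, at 17.14 to 17.84. The 8 lymphocyte genes with a probe had 0.0254 and 0.115. Of 14 marker lists, 3 had a summed level that was lower on every congenic than on every B6 brain array, and 0 were higher on every one. The 7 granulocyte genes were at 11.79 to 12.30 in congenic and 12.46 to 15.71 in B6 brain, where Ltf and Camp were detected on no congenic array and Elane on no array of either strain. The 7 endothelial genes were at 12.94 to 13.29 in congenic and 13.31 to 13.62 in B6 brain, with Tie1 detected on no congenic array and Vwf on none of either strain. The 4 skeletal muscle genes were at 13.05 to 13.35 in congenic and 13.62 to 13.76 in B6 brain, with Ckm, Tnnt3 and Mylpf detected on no array. These 3 lists moved in brain in the direction of Ifi205. The part of any of these cell types in the results was not tested.

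**Figure D3:**
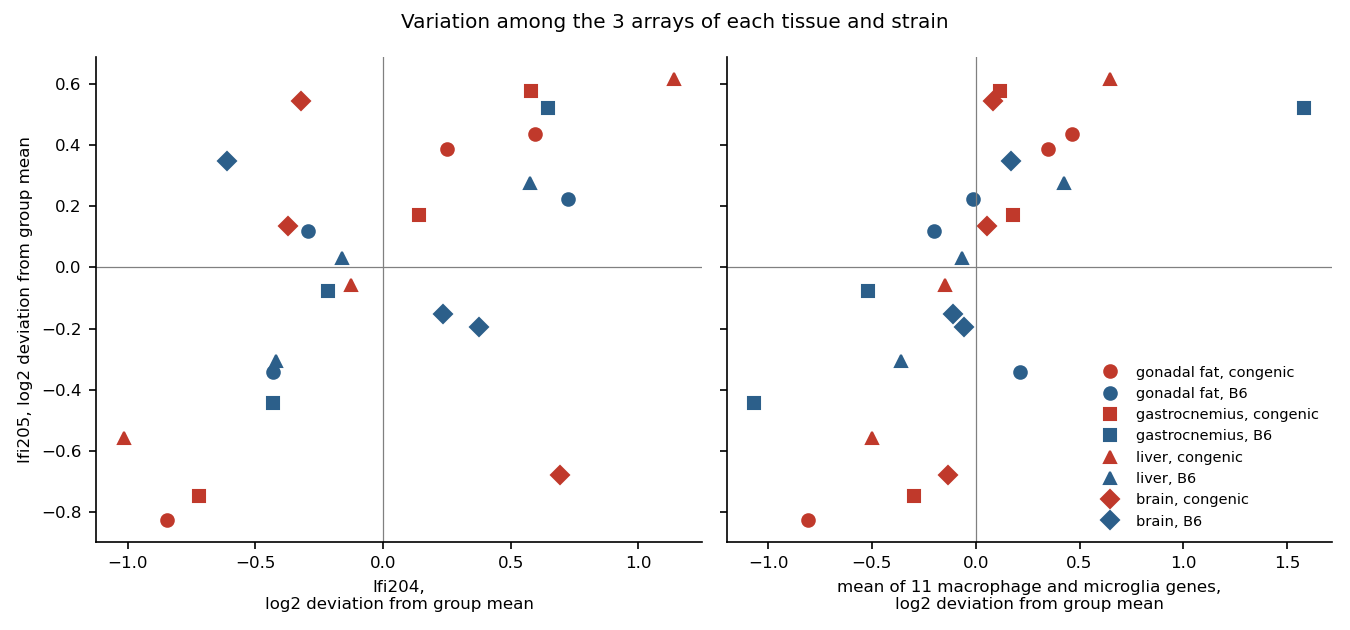
Deviation of Ifi205 from the mean of its tissue and strain (vertical axis, log2) against that of Ifi204 (left) and against the mean deviation of 11 macrophage and microglia genes (right), for 24 arrays. Tissue is given by symbol and strain by colour; within groups r was 0.571 on the left and 0.708 on the right.

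Among 10870 detected genes, those whose levels followed Ifi205 most closely over 24 arrays were Aqp1, a water channel gene, with r = 0.971, Gimap8, an immune-associated GTPase gene, with 0.963, and Dcn, the matrix proteoglycan decorin, with 0.958. Eif4ebp1 and Ryk followed at 0.95 and 0.949. These values rest on the 4 tissue means. Within groups r was 0.626 for Aqp1, 0.653 for Gimap8, 0.306 for Dcn, 0.394 for Eif4ebp1 and 0.0283 for Ryk. For Ifi204 the closest were Car3, a carbonic anhydrase gene, at 0.952, the inflammatory caspase gene Casp4 at 0.943 and Phf10 at 0.94. The closest to Isg15 was Prrg2 at 0.896, and to Irf7 Alg5 at 0.867.

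The other p200 gene that passed the filter, Ifi209, was detected on 6 of 6 fat arrays, 3 of 6 liver arrays, 1 of 6 gastrocnemius arrays and 0 of 6 brain arrays. By the bound it was 4.62-fold higher in gonadal fat than in brain (limma adjusted p = 0.000783) and 3.36-fold higher in liver than in brain (adjusted p = 0.00636). Ifi209 passed the filter through fat and liver, so its direction against brain was largely fixed in advance. Gastrocnemius and brain were not separated (adjusted p = 0.204). Ifi202b was detected on 1 array, of congenic gonadal fat. Of 15 other p200 genes listed, these 2 had a probe.

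Irf7 was highest in liver and gonadal fat. On liver arrays its level was 9.18, 11.30 and 10.34 in the congenic and 10.37, 11.24 and 10.92 in B6. On gonadal fat arrays it was 10.34, 9.89 and 8.69 in the congenic and 10.13, 10.48 and 10.81 in B6. On these arrays the strains overlapped in each tissue. On gastrocnemius arrays the level was 9.12, 10.29 and 8.85 in the congenic and 7.51, 8.26 and 9.73 in B6. On brain arrays it was 8.46, 8.77 and 7.50 in the congenic and 8.59, 8.15 and 7.27 in B6. Detection was partial in fat, with 3 of 6 arrays, and in gastrocnemius, with 1 of 6, and no brain array had it. By the bound Irf7 was 5.41-fold higher in liver than in brain (limma adjusted p = 3.52e-05). It was 3.82-fold higher in gonadal fat than in brain (limma adjusted p = 0.000515), where undetected fat arrays count in the mean. The lowest fat array, at 8.69, lay below the highest brain array, at 8.77. Gastrocnemius minus liver was -1.57 ± 0.45 (SE, adjusted p = 0.0048). Gonadal fat minus liver was -0.48 ± 0.45 (adjusted p = 0.39). Gastrocnemius, 1.78-fold above brain by the bound, did not pass the test against it (adjusted p = 0.0965). Gonadal fat minus gastrocnemius, at 1.08 ± 0.45 (adjusted p = 0.0461), was past the threshold by a small margin and missed it under 18 of its alternatives. These were 15 of the leave-one-out fits, with adjusted p up to 0.137 without gastrocnemius B6 replicate 1, the unfiltered fit, the replicate block (0.209) and the fit without the 2 arrays that stood apart (0.0961). Without those 2 arrays the other 3 called differences of Irf7 stayed past the threshold, with adjusted p of 0.00015 against brain for liver, 0.00152 against brain for fat and 0.0153 for muscle against liver.

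Isg15 differed less between tissues, and brain was lowest. Its level on gonadal fat arrays was 10.71, 10.61 and 10.82 in the congenic and 10.62, 10.55 and 10.71 in B6. On gastrocnemius arrays it was 10.40, 10.31 and 10.57 in the congenic and 11.23, 10.54 and 10.95 in B6. The strains overlapped in both tissues. On liver arrays it was 10.30, 11.11 and 11.34 in the congenic and 11.27, 11.03 and 11.23 in B6. On brain arrays it was 9.55, 10.04 and 9.70 in the congenic and 10.15, 10.21 and 10.17 in B6. Every fat, muscle and liver array lay above every brain array. Liver minus brain was 1.08 ± 0.22 (SE, limma adjusted p = 0.000137), gonadal fat minus brain 0.68 ± 0.22 (0.00945) and gastrocnemius minus brain 0.70 ± 0.22 (0.00758). The last was 0.43 with adjusted p = 0.096 when arrays were scaled to a common median. Fat, muscle and liver were not separated from one another for Isg15, with adjusted p from 0.147 to 0.95. Without liver congenic replicate 1 gonadal fat minus liver was -0.54 (adjusted p = 0.0391) and gastrocnemius minus liver -0.54 (adjusted p = 0.0429).

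Ifit1 and Ifit2 were near the detection limit. Ifit2 was detected on 6 of 6 gonadal fat arrays, 0 of 6 gastrocnemius, 2 of 6 liver and 3 of 6 brain arrays. Its level in fat was 10.23, 9.27 and 9.40 in the congenic and 9.16, 8.47 and 9.44 in B6. In gastrocnemius it was 7.86, 8.27 and 8.14 in the congenic and 7.23, 7.94 and 7.37 in B6, below every fat array. By the bound Ifit2 was 2.78-fold higher in gonadal fat than in gastrocnemius (limma adjusted p = 0.0023). With the replicate block the difference was 0.98 and its adjusted p was 0.133. Ifit2 passed the filter through fat and brain, so its lower direction in gastrocnemius against either was largely fixed in advance. In liver the level was 7.14, 7.95 and 7.78 in the congenic and 7.90, 10.05 and 9.17 in B6, where B6 replicates 1 and 3 were the 2 detected arrays. In brain it was 8.73, 8.15 and 9.71 in the congenic and 9.68, 9.15 and 7.78 in B6. Gonadal fat minus liver was 1.02 ± 0.40 (SE, limma adjusted p = 0.0369), and 0.93 without the 2 arrays that stood apart (adjusted p = 0.0932). By the bound Ifit2 was 2.02-fold lower in gastrocnemius than in brain (limma adjusted p = 0.0218). Its undetected brain arrays count in that mean, and the 2 tissues overlapped. Gonadal fat minus liver missed the threshold under 9 alternatives. Its adjusted p was 0.322 with the replicate block, and from 0.066 to 0.134 without any of gonadal fat congenic replicate 1, gonadal fat B6 replicates 1 and 3, liver congenic replicate 1 and liver B6 replicate 1. Gastrocnemius minus brain missed it without brain B6 replicate 1 (0.0738), without brain congenic replicate 4 (0.0739) and with median scaling (0.107).

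Ifit3/Ifit3b was detected on 21 arrays and no tissue pair was called, with differences from -0.13 to 0.74. Its lowest and highest levels in liver, 8.10 on B6 replicate 1 and 11.46 on B6 replicate 2, spanned the whole series. Ifit1 was above the detection rule on 3 of 6 liver arrays and on no other array, and no tissue pair was called. Without liver B6 replicate 3, where it was not detected, Ifit1 was called higher in liver than in brain (adjusted p = 0.00492) and lower in gonadal fat than in liver (adjusted p = 0.0105). Ifit1 passed the filter through liver alone, so its direction against the other tissues was largely fixed in advance.

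Over the 7 members on a probe, 20 of 42 tissue pair differences were called, or 47.6%. Over all probes the share called in either direction was 57.9% for gonadal fat minus brain, 58.9% for gastrocnemius minus brain, 63.7% for liver minus brain, 50% for gonadal fat minus liver, 50.6% for gastrocnemius minus liver and 50.8% for gonadal fat minus gastrocnemius. The share among the members was below each of these. The directions were uneven against brain. In gonadal fat and in liver 4 of 7 members were higher and 0 lower, and in gastrocnemius 3 were higher and 1 lower. Ifi204 and Irf7, higher in fat and in liver, were detected on no brain array. They entered through other tissues, so their direction against brain was largely fixed by the filter and is not evidence of a shift. Ifit2, the 1 lower in gastrocnemius, was detected on no array of that tissue, and its direction was likewise largely fixed. Over all probes, 27.4%, 33.8% and 30.3% were lower in fat, liver and muscle than in brain. In gonadal fat against liver 3 members were higher and 0 lower, beside 29.2% and 20.8% of all probes. In gastrocnemius against liver 2 were higher and 1 lower, beside 26.9% and 23.6%, and in gonadal fat against gastrocnemius 2 were higher and 0 lower, beside 29.2% and 21.6%. The median difference from brain was 0.74 for the members and 0.11 for all probes in gonadal fat, 0.71 and 0.03 in gastrocnemius, and 1.08 and -0.03 in liver.

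Other genes of the interferon pathway were read from 9 lists of 130 genes, of which 85 had a probe of their own and 72 were tested between tissues. Over all probes, 30.5% were called higher and 27.4% lower in gonadal fat than in brain, 28.6% and 30.3% in gastrocnemius, and 29.9% and 33.8% in liver, and the counts below stand beside these shares. Medians of lists hold fitted values, also for probes not detected in 1 of the tissues. A gene detected on no brain array passed the filter through another tissue, so its direction against brain was largely fixed in advance. Ifih1 and Trim25 are among such genes, and the counts include them. The same filter holds for the shares over all probes. Of the 26 tested antiviral effectors induced by type I interferon, 19 were higher and 1 lower in gonadal fat than in brain, 18 and 1 in gastrocnemius, and 21 and 1 in liver. Their median differences were 2.26, 1.15 and 2.01. Isg20, an exonuclease gene, was at 5.50 ± 0.31 for gonadal fat minus brain (SE, limma adjusted p = 3.17e-13). Bst2, the tetherin gene, was at 5.04 ± 0.27 for liver minus brain (adjusted p = 4.18e-14). The membrane protein gene Ifitm3, which limits virus entry, was higher than in brain by 3.61 ± 0.22 in fat, 3.23 ± 0.22 in muscle and 4.25 ± 0.22 in liver. The 1 effector that was lower in all 3 tissues was Cmpk2, a mitochondrial nucleotide kinase gene, at -1.82 ± 0.41, -2.85 ± 0.41 and -2.98 ± 0.41.

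In gastrocnemius against liver, 1 of the 26 antiviral effectors was higher, 14 were lower and 11 were not called, beside 26.9% higher and 23.6% lower of all probes. Their median was -0.77, and that of all probes 0.05. Oasl1 was at -2.73 ± 0.39 and Bst2 at -2.43 ± 0.27 (SE). Trim25, a ubiquitin ligase gene detected on no gastrocnemius array, was 4.0-fold lower there by the bound (limma adjusted p = 0.000455). It passed the filter through other tissues, so its direction against liver was largely fixed in advance, and the 14 lower include such genes. The 1 that was higher, named after its value was seen, was Sp100, a nuclear body gene, at 1.24 ± 0.45 (limma adjusted p = 0.0242). In gonadal fat against liver 7 of the 26 were higher and 8 lower.

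The 13 tested GTPases and antigen processing genes induced by interferon gamma included 12 that were higher and 0 lower in gonadal fat than in brain, 11 and 1 in gastrocnemius, and 10 and 0 in liver. Iigp1, an immunity-related GTPase gene, was higher than in brain by 4.46 ± 0.44 in fat, 4.03 ± 0.44 in muscle and 7.53 ± 0.44 in liver. Of 8 receptors and signal transducers, 7 were higher in gonadal fat, 4 in gastrocnemius and 6 in liver than in brain, and 0 were lower. Ifngr1, a chain of the interferon gamma receptor, was at 3.52 ± 0.20 in fat, 2.03 ± 0.20 in muscle and 0.69 ± 0.20 in liver. Ifnar2, a chain of the type I interferon receptor, ran the other way between muscle and liver, at 0.08 ± 0.27 in gastrocnemius (adjusted p = 0.831) and 2.94 ± 0.27 in liver. Irf9, the DNA-binding partner of the STAT factors, was at 2.69 ± 0.22, 0.88 ± 0.22 and 2.46 ± 0.22 in fat, muscle and liver.

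Of 5 other interferon regulatory factors, 4 were higher in gonadal fat, 3 in gastrocnemius and 3 in liver than in brain. Irf4 was at 5.40 ± 0.46 in fat (limma adjusted p = 4.4e-10), and 0.81 ± 0.46 in muscle (adjusted p = 0.137), and it was detected on 0 of 6 liver arrays. Of the 3 tested genes for joining or removing Isg15, Uba7, its activating enzyme, was at 3.71 ± 0.26, 1.89 ± 0.26 and 2.11 ± 0.26. Of 4 nucleic acid sensors and adaptors, 3 were higher and 0 lower in gonadal fat, 2 and 1 in gastrocnemius, and 2 and 0 in liver than in brain. Mavs, an adaptor of RNA sensors, was higher than in brain by 2.58 ± 0.19 in fat, 3.69 ± 0.19 in muscle and 3.88 ± 0.19 in liver. The RNA sensor gene Ifih1 was detected on no brain array. By the bound it was 7.86-fold higher in fat (limma adjusted p = 8.93e-08), 1.93-fold in muscle (0.0147) and 14.7-fold in liver (9.49e-10). Tlr3, a receptor for double-stranded RNA, was the 1 that was lower in muscle, at -1.44 ± 0.34 (limma adjusted p = 0.000839), where 1 of 6 arrays had it detected. Of 8 negative regulators, 3 were higher and 1 lower in fat, 4 and 2 in muscle, and 4 and 2 in liver. Their median differences were 0.41, 1.02 and 0.66, beside 0.11, 0.03 and -0.03 for all probes. Ptpn6, a phosphatase gene of blood cells, was at 2.72 ± 0.55 in fat and 3.85 ± 0.55 in liver. Of 4 tested interferon genes, 2 were called against brain, Ifnk and Ifnl3, both higher in liver than in brain. Ifnk, detected on no brain array, was 1.57-fold higher by the bound (limma adjusted p = 0.028), and Ifnl3 was higher by 0.92 ± 0.32.

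**Figure D4:**
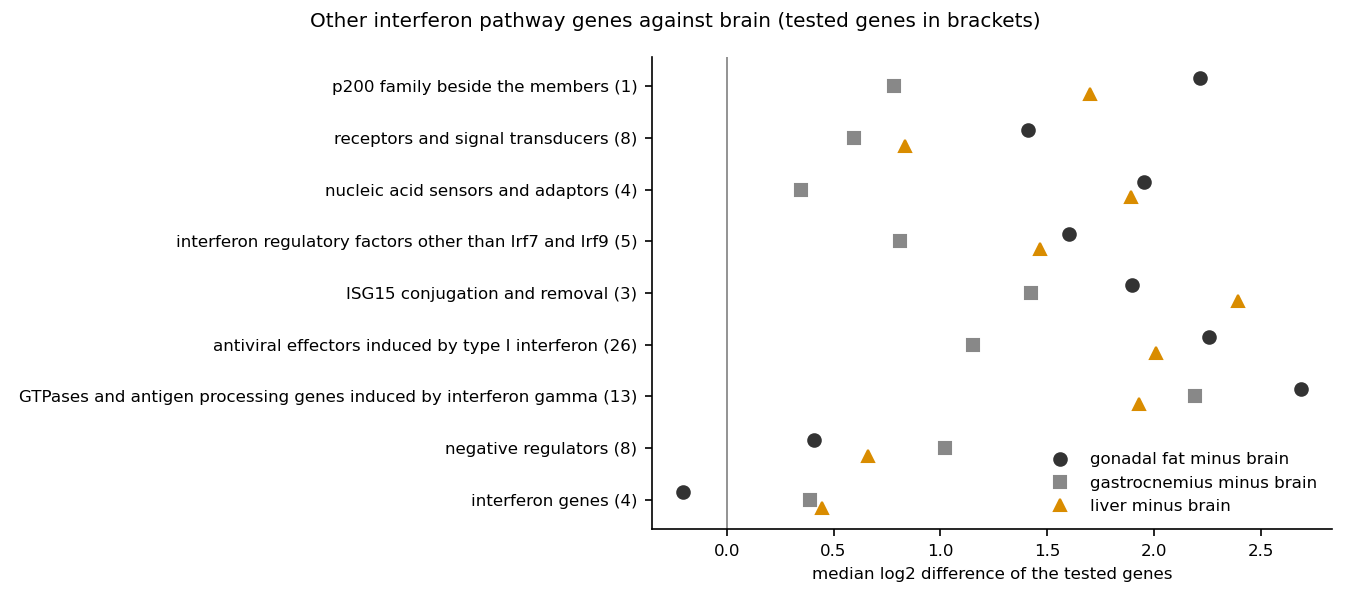
Median log2 difference from brain of the tested genes in each of 9 interferon pathway lists, with the number of tested genes in brackets, for gonadal fat, gastrocnemius and liver. All medians but that of the interferon genes in gonadal fat lie above 0; the medians over all probes were 0.11, 0.03 and -0.03.

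Between strains, no member passed the threshold in any tissue. Of all probes 0% were called at an adjusted p under 0.05 in brain, liver, gonadal fat or gastrocnemius, while 9.65%, 3.27%, 3.46% and 2.81% of them had an unadjusted p under 0.05. When gonadal fat congenic replicate 2 was left out, 275 probes were called in gonadal fat. Values in this comparison come from the 6 arrays of a tissue normalized among themselves. Ifi205 in brain had log2 levels of 7.66, 8.62 and 9.12 on congenic arrays and 10.94, 11.53 and 10.98 on B6 arrays, so the strains did not overlap there. In gonadal fat, gastrocnemius and liver 0 members were apart by strain, beside 8.1%, 7.76% and 6.96% of all tested probes apart in either direction. The authors' signals were 216.5, 435.1 and 620.2 in the congenic, with signal to noise ratios from 0.5 to 1, and 1991, 3053.3 and 2366.4 in B6, with ratios from 3.8 to 7.7. The difference was -2.68 ± 0.52 (SE, n = 3 each), with limma adjusted p = 0.48. By the bound, Ifi205 was 6.40-fold lower in congenic than in B6 brain. That is close to the measured difference and carries its error, so it is not a minimum.

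Ifi205 entered the brain test through its 3 B6 arrays alone, so its direction there was fixed by the filter. Of all tested brain probes, 8.89% were lower on every congenic than on every B6 array, and 15.4% were apart in either direction. The congenic arrays of the triplicate had 48.0% to 52.6% of probes detected, and the B6 brain arrays 51.7% to 54.3%. The part of this gap in the result was not tested. Leaving out each congenic replicate in turn gave -2.99 to -2.29, and the adjusted p over all alternatives ran from 0.0769 to 0.674. On the 25th array the Ifi205 signal was 649.1 with a ratio of 1.2. When 7 brain arrays were normalized together its level was 9.27, against 7.66 to 9.12 on the other congenic arrays and 10.96 to 11.55 on B6 arrays. With it the difference was -2.50 (limma adjusted p = 0.364), and in place of congenic replicate 4 it was -2.64 (adjusted p = 0.108). Since it may come from the animal of replicate 4, it is not counted as a further sample.

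The Ifi205 difference was smaller outside brain and was called in no tissue. It was 0.53 ± 0.36 in gonadal fat (SE, limma adjusted p = 0.909), -0.08 ± 0.39 in gastrocnemius (0.996) and 0.16 ± 0.34 in liver (1), and the strains overlapped in all 3. The limma F test of whether the strain difference itself differed between tissues gave an adjusted p of 0.285 for Ifi205 over 16451 probes. At an unadjusted p under 0.05 that test held 4.64% of all probes, and 0% were called. The adjusted p was 0.00355 without gonadal fat congenic replicate 2, the fat array with the lowest Ifi205 of its group, and 0.0547 or more without any other array. Averaged over tissues, Ifi205 was at -0.51 ± 0.20 (SE, limma adjusted p = 0.742), beside 6.52% of all probes with an unadjusted p under 0.05.

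Ifi204 was at 0.15 ± 0.44 in gonadal fat, -0.13 ± 0.42 in gastrocnemius and 0.15 ± 0.52 in liver, with limma adjusted p from 0.972 to 1, and it was not tested in brain. In brain Isg15 had levels of 10.40, 10.96 and 10.58 on congenic arrays and 11.07, 11.13 and 11.10 on B6 arrays, which did not overlap. Its difference was -0.45 ± 0.30 (SE, adjusted p = 0.63), and the 25th array lay at 10.62, below the B6 arrays. Isg15 was at 0.09 ± 0.27 in gonadal fat, -0.47 ± 0.33 in gastrocnemius and -0.25 ± 0.35 in liver. Irf7, the member on chromosome 7, was at -0.92 ± 0.53 in gonadal fat (adjusted p = 0.909) and -0.52 ± 0.51 in liver (adjusted p = 1). It did not pass the filter in muscle or brain.

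Ifit3/Ifit3b in gonadal fat had levels of 10.08, 9.85 and 10.87 in the congenic and 10.76, 10.84 and 11.22 in B6, with a difference of -0.67 ± 0.37 (SE, limma adjusted p = 0.909). Ifit2 in gonadal fat was at 0.71 ± 0.50 (adjusted p = 0.909). Of the 20 strain differences tested for members 0 were called, and apart from Ifi205 in brain none had an unadjusted p under 0.05. Without gonadal fat congenic replicate 1 the differences in that tissue were 0.35 for Ifi205, 0.04 for Ifi204, 0.40 for Ifit2, -0.58 for Ifit3/Ifit3b and 0.09 for Isg15, and Irf7 did not pass the filter. Without liver congenic replicate 2 those in liver were -0.17 for Ifi205, -0.41 for Ifi204, -0.15 for Ifit3/Ifit3b, -0.34 for Isg15 and -0.99 for Irf7. Ifi205, Ifi204 and Ifit3/Ifit3b had positive differences in liver with that array and negative ones without it, Ifit1 did not pass the filter without it, and 0 were called. In the 9 pathway lists 0 genes were called between strains in any tissue. Of the 24 antiviral effectors tested in gonadal fat, 18 had higher values in the congenic, with a median of 0.21, while 48.9% of all probes had lower values and their median was 0.01. In gastrocnemius 12 of 16 had lower values, with a median of -0.21, beside 49.2% of all probes and a median of 0.01. In liver 15 of 22 had higher values, with a median of 0.08, while 51% of all probes had lower ones. Other lists in liver ran the other way. Of the genes induced by interferon gamma 8 of 12 had lower values (median -0.28), and of receptors and signal transducers 6 of 8 (median -0.19). All 3 other interferon regulatory factors, 3 Isg15 conjugation genes and 3 sensors were lower. Higher values held for 5 of 8 negative regulators, 2 of 3 interferon genes and the 1 p200 gene. In brain 9 of 14 had lower values, with a median of -0.25, beside 54.6% of all probes and a median of -0.03.

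**Figure D5:**
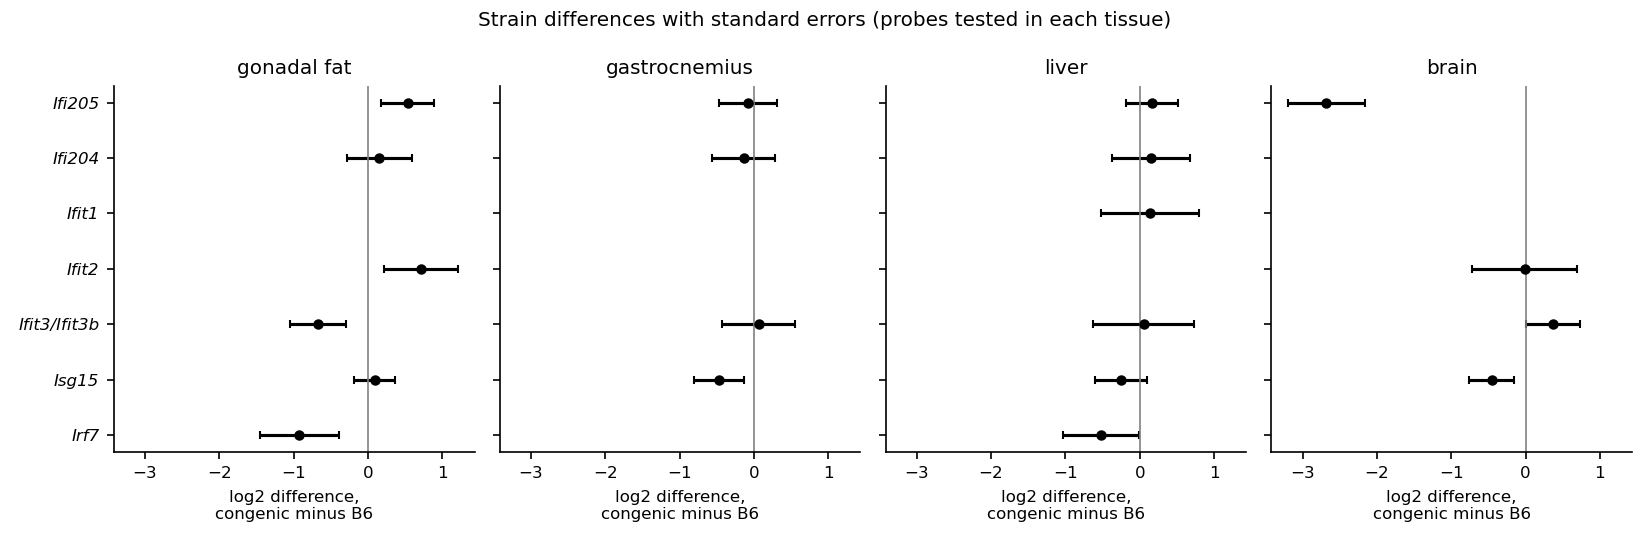
Log2 difference, congenic minus B6, of each member in each tissue where its probe passed the filter, with standard error bars from 3 arrays per strain. Ifi205 in brain, at -2.68 ± 0.52, lies farthest from 0, and no difference passed the adjusted threshold of 0.05.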

How the data were processed

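The members, gene lists and tests were chosen with earlier results of these data known. RNA of 25 samples was read on 1-colour arrays with chemiluminescent detection. Per the file headers, the authors deposited a linear intensity (Signal) and, as a score, the signal to noise ratio of every probe. Which steps led to the Signal is not stated there. The series matrix deposited by the authors holds log2 values, the Signal on that scale shifted by 1 constant on each array, blank where the ratio is below 3. Their median per array ran from 11.37 to 12.12, and they were not used for tests.

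Signals were corrected by normexp with an offset of 50, put on the log2 scale and quantile-normalized with limma 3.58.1 in R 4.3.3. For strains this was done among the 6 arrays of a tissue, and for tissues over 24 arrays. Tested probes had a ratio of 3 or more on 3 or more of the 6 arrays of a tissue, in at least 2 tissues for the average over tissues and the interaction, and in at least 1 for tissue pairs. Tests were lmFit and eBayes with an intensity trend, adjusted by Benjamini-Hochberg over all tested probes, with a threshold of 0.05. Fits over tissues had 8 group means, with title numbers entered as a random block. The number recurs in liver, fat and muscle titles of a strain and was taken to name an animal, with each brain array as its own block. Over 9 pairs of arrays with a shared number, the correlation of deviations from group means ran from -0.115 to 0.0444, and 0 were over 0.1. The block correlation was -0.0976 for the strain average and -0.0804 for tissue pairs. Fitted differences therefore depart slightly from differences of plain means.

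Names came from the platform annotation, updated through the GRCm38.p6 gene table, and 247 probes with several genes were not named, other than Ifit3/Ifit3b. The text names all members and, of each list and comparison, up to 3 genes past the test with the largest change. For likeness it names the genes with the highest r over 24 arrays. Where a probe was detected on no array of a group, the fold is a bound. The brighter group's mean was set against the mean, per array of the dimmer group, of the larger of 2 values, its own and the lowest detected signal of any probe on that array. The bound is therefore often close to the measured difference, and it is an estimate, not a minimum. The tests were tried on simulated data. Alternatives were other background, scaling and filter settings, eBayes without a trend, the block, single arrays left out and the 25th array. Leaving out the 2 arrays that stood apart was chosen after seeing the data. The p-values measure the spread between arrays of few animals, and precision is limited by how many arrays there are.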

Additional observations from a re-analysis of the deposited data

How the results depend on the processing

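No called difference reversed under any alternative. The count of called probes was 0 in liver and gastrocnemius under every alternative run. In brain it was 3 with the 25th array in place of congenic replicate 4, and 0 to 2 with single arrays left out, the 2 arising without congenic replicate 4 and without B6 replicate 1. In gonadal fat it was 0 to 275, averaged over tissues 0 to 171 and for the interaction 0 to 277 with single arrays left out, each upper count arising without gonadal fat congenic replicate 2. The interaction held 1 call without liver congenic replicate 3 and 1 without gastrocnemius congenic replicate 3. Of 20 strain differences of members, 12 changed sign under an alternative and 0 were called under any. Of 20 called tissue pair differences of members, 13 stayed called under every alternative, all 5 of Ifi205 among them, and 5 uncalled differences became called under an alternative. Those include gastrocnemius minus brain for Irf7, with adjusted p = 0.0214 under median scaling and 0.0383 without gastrocnemius B6 replicate 1. Median scaling moved the median of all probes by -0.09 to 0.07.

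With the title number as a fixed replicate block, gonadal fat minus liver had 6389 called probes, against 10757 with the random block, and gonadal fat minus gastrocnemius 6352, against 10922. That fit could not be made for pairs with brain, whose codes do not recur, and the strains share no title number, so it bears on no strain difference. Without the block, gonadal fat minus brain for Ifi205 was 5.55, and no call of a member changed. Each member had 1 probe, so the mean over probes of a gene was not run. The filter leaves Ifi205 in brain untested when a B6 array is left out. With 3 arrays per strain and several members near the detection limit, differences the size of their standard errors could not be shown.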
